A study of Rattus norvegicus with 8 samples.

Results

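The genes described here are 7 markers of injured kidney tubules, Havcr1, Lcn2, Spp1, Clu, Timp1, Akap12 and Cd44, measured in rat kidney allografts. They were taken by name, through 9 array probes that matched these genes by accession, and are 7 of 35535 genes on the array. RNA was taken 24 h after transplantation from kidneys of Dark Agouti (DA; RT1a) donors placed in Lewis (LEW; RT1l) recipients, a strain with a different major histocompatibility complex. All animals were male inbred rats of 120 to 250 g, no ages are given, the recipients had lost both of their own kidneys, and every graft had been kept for 25 min at 4 °C in University of Wisconsin solution. There were 4 groups of 2 grafts. In the anti-IL6R group, donors were 20 to 50% lighter than their recipients, which were given 500 µg of a neutralizing antibody to the interleukin-6 receptor intravenously right after surgery. In the prednisolone group the weight difference was the same, and the recipient was given 15 mg/kg of this glucocorticoid intravenously. The high-difference group had that weight difference and no treatment. The low-difference group was untreated too, and its donors were 0 to 20% lighter than their recipients. All 4 groups are thus allografts that went through surgery, cold storage and reperfusion. A whole graft holds donor kidney cells together with blood and immune cells of the recipient, and with such bulk RNA, fewer cells of a type and less RNA per cell cannot be told apart.

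A tubule cell deprived of oxygen and then reperfused loses its brush border, may die or dedifferentiate, and raises a set of genes that are mostly low in a resting tubule. Several of the encoded proteins are shed or secreted and are followed in urine or blood as signs of acute kidney injury. Havcr1 (KIM-1) is a surface receptor with which injured proximal tubule cells take up dying cells, and Cd44 is a receptor for the matrix sugar hyaluronan. Lcn2 (NGAL) is a secreted protein that binds iron-loaded siderophores, Spp1 (osteopontin) is a secreted phosphoprotein bound by integrins and Cd44, and Clu (clusterin) is a secreted chaperone. Timp1 inhibits matrix metalloproteinases, and Akap12 is a scaffold that anchors protein kinases A and C. The study's title asks about the role of interleukin-6 (IL-6) signalling in the early function of grafts with a high weight difference.

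The stretch of 250 bases before the gene start is shown for Havcr1 and Lcn2, because these were the members with a match to TTGCNNAA, a motif of the C/EBP factors. C/EBP factors are among the regulators of acute-phase genes. Capitals mark the match. Both sequences are from RefSeq on the GRCr8 assembly, 5′ to 3′ on the gene's strand, at chr10:31629528-31629777 on the plus strand for Havcr1 and at chr3:36081781-36082030 on the minus strand for Lcn2.
Havcr1: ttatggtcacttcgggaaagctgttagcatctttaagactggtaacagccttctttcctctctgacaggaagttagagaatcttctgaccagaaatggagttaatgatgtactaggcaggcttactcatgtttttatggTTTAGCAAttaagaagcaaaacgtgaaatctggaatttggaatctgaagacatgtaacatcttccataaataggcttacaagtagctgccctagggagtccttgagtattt
Lcn2: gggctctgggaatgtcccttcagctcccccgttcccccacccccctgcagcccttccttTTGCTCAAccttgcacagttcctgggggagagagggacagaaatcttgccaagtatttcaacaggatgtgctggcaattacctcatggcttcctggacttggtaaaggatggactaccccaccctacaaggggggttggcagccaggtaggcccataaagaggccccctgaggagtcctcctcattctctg
The match lay 111 to 104 bases before the start of Havcr1 and 191 to 184 bases before that of Lcn2. In all, 11 motifs were searched on both strands of the 6 member promoters available, and the choice to show this one was made after the matches had been seen. Clu had no promoter sequence there and was not searched. Of 33469 rat promoters of the same length, 9.22% held TTGCNNAA. Lcn2 also held ACANNNTGT, a steroid receptor motif (5.81% of promoters), and Havcr1 held GAANNTTC, a heat shock factor motif (7.23%). Spp1 held TATAAA (12.9%), and Akap12 and Timp1 held GGGCGG, the GC box (30.5%). None of the 6 promoters searched held TGANTCA (AP-1; 6.34% of promoters), TTCNNNGAA (STAT; 7.67%), GGGANTTCC (NF-kB; 1.43%), TGACGTCA (CREB; 1.59%), CCAAT (34%) or GGAANTTCC (0.669%), and Cd44 held none of the 11. None of the matches overlapped another. Such a match is a stretch of letters and not a measured binding site. Nor does the lack of a match to these fixed patterns within 250 bases show that a promoter lacks a site.

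Levels are given as the log2 of the processed signal minus the 75th percentile of the same array, so that a level of 0 is that percentile and a step of 1 is a 2-fold change. Levels compare arrays for a single probe and not one gene with another. Of 43379 gene spots per array, 64.5% to 74.0% were well above background, and the log2 levels of the 2 arrays of a group correlated across genes at 0.992 for anti-IL6R, 0.956 for prednisolone, 0.981 for high-difference and 0.987 for low-difference grafts. Genes are not independent replicates in these correlations. The anti-IL6R and prednisolone arrays were on slide 2 and the untreated arrays on slide 1, so a treated group and an untreated group cannot be told apart from their slides. High against low difference lies within slide 1, and anti-IL6R against prednisolone within slide 2. Marker genes of proximal tubule, loop of Henle, collecting duct and podocytes that were tested were well above background on all arrays, except that the podocyte gene Wt1 was so on 7 of 8.

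Among the receptors, Havcr1 had the widest span of any member. Its log2 level was 3.56 and 5.49 in the anti-IL6R grafts, 6.95 and 2.01 in the prednisolone grafts, 7.43 in the measured high-difference graft, and 3.79 and 5.24 in the low-difference grafts. The Havcr1 spot on the other high-difference array was flagged as non-uniform, with a pixel SD of 93370 around a mean raw signal of 151500, and was left out. With flagged spots kept, that array read 7.71 for Havcr1. The measured high-difference graft thus lay above every other measured graft, with the first prednisolone graft next to it, and the 2 prednisolone grafts stood 30.6-fold apart. High-difference minus low-difference was 2.91 ± 2.07 (SE, n = 1 and 2; 95% interval -2.30 to 8.13; limma adjusted p = 0.504), in a fit in which the flagged array was missing. Anti-IL6R minus high-difference was -2.90 ± 2.07 (limma adjusted p = 0.487) and prednisolone minus high-difference -2.94 ± 2.07 (limma adjusted p = 0.584), n = 2 and 1 in each. None of these differences passed the adjusted threshold of 0.05. A single high-difference graft has no spread of its own, so the SE rests on the spread pooled over the other groups. The SD of the log2 level was 3.49 in prednisolone, 1.36 in anti-IL6R and 1.02 in low-difference grafts.

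Cd44, the hyaluronan receptor, was measured by a pair of probes. On the brighter probe its log2 level was 1.52 and 1.105 in the anti-IL6R grafts, 3.00 and 0.73 in the prednisolone grafts, 2.53 and 3.35 in the high-difference grafts, and 1.30 and 1.52 in the low-difference grafts. Both high-difference grafts lay above all anti-IL6R and low-difference grafts, and the first prednisolone graft lay between them. Cd44 averaged 2.94 ± 0.58 with a high and 1.41 ± 0.15 with a low weight difference (SD, n = 2 each), and the means differed by 1.53 ± 0.71 (SE; limma adjusted p = 0.359). Anti-IL6R minus high-difference was -1.62 ± 0.71 for Cd44 (SE; limma adjusted p = 0.295), and the groups did not overlap. The dimmer probe put 25 of the 28 pairs of arrays in the same order. It was not well above background on the first anti-IL6R and the second prednisolone array.

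Among the secreted members, Lcn2 had log2 levels of -2.23 and -2.72 in the anti-IL6R grafts, -1.74 and -4.03 in the prednisolone grafts, -1.93 and 0.31 in the high-difference grafts, and -3.92 and -2.82 in the low-difference grafts. The second high-difference graft stood apart at the top, 4.71-fold above the other graft of its group. Both high-difference grafts lay above both low-difference and both anti-IL6R grafts, while a prednisolone graft lay above the lower high-difference graft. High-difference minus low-difference was 2.56 ± 0.97 for Lcn2, a 5.90-fold higher mean level (SE, n = 2 each; 95% interval 0.22 to 4.90; unadjusted p = 0.0366, limma adjusted p = 0.325). Anti-IL6R minus high-difference was -1.66 ± 0.97 (SE; limma adjusted p = 0.397).

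Clu, the chaperone, read 6.12 and 7.99 in the anti-IL6R grafts, 7.77 and 4.89 in the prednisolone grafts, 7.94 and 9.57 in the high-difference grafts, and 7.12 and 8.29 in the low-difference grafts. Here the groups overlapped in high against low difference and in anti-IL6R against high difference. Both prednisolone grafts lay below both high-difference grafts, though the first by only a small step. Clu averaged 8.76 ± 1.15 with a high and 7.70 ± 0.83 with a low weight difference (SD, n = 2 each), and the difference of 1.05 ± 1.13 was smaller than its SE (limma adjusted p = 0.64). Prednisolone minus high-difference was -2.43 ± 1.13 for Clu (SE; limma adjusted p = 0.455).

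Timp1, the metalloproteinase inhibitor, was read by 10 spots per array. Its log2 level was 4.25 and 4.99 in the anti-IL6R grafts, 5.13 and 2.77 in the prednisolone grafts, 4.85 and 5.99 in the high-difference grafts, and 3.38 and 4.68 in the low-difference grafts. High-difference grafts lay above low-difference grafts with no overlap, by a small step between the nearest pair, and both treated groups overlapped with them. High-difference minus low-difference was 1.39 ± 0.86 for Timp1 (SE, n = 2 each; limma adjusted p = 0.449).

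Spp1, or osteopontin, varied least, with log2 levels of 8.68 and 8.52 in the anti-IL6R grafts, 8.58 and 7.69 in the prednisolone grafts, 9.09 and 9.05 in the high-difference grafts, and 8.73 and 8.86 in the low-difference grafts. All 10 of its spots were saturated on 3 arrays, the second anti-IL6R, the first prednisolone and the second low-difference array. On 3 further arrays 1 spot was saturated, and on 2 arrays none. Before scaling, its signal spanned 417700 to 573800 on the 7 arrays other than the second prednisolone array, a 1.37-fold range, against 174500 on that array. The 75th percentiles by which the arrays were scaled spanned 1.85-fold, more than the Spp1 signal on those 7 arrays. Unscaled, both anti-IL6R arrays, the first prednisolone array and the second low-difference array read above both high-difference arrays, so the order of the scaled Spp1 levels is set by the scaling, and its differences and p-values below rest on a capped signal. High-difference minus low-difference was 0.27 ± 0.30 for Spp1 (SE, n = 2 each; limma adjusted p = 0.655). Prednisolone minus high-difference was -0.93 ± 0.30 for Spp1 (SE; unadjusted p = 0.0198, limma adjusted p = 0.364). Anti-IL6R minus high-difference was -0.47 ± 0.30 (SE; limma adjusted p = 0.431), and it was 0.08, with the opposite sign, after quantile normalization.

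**Figure D1:**
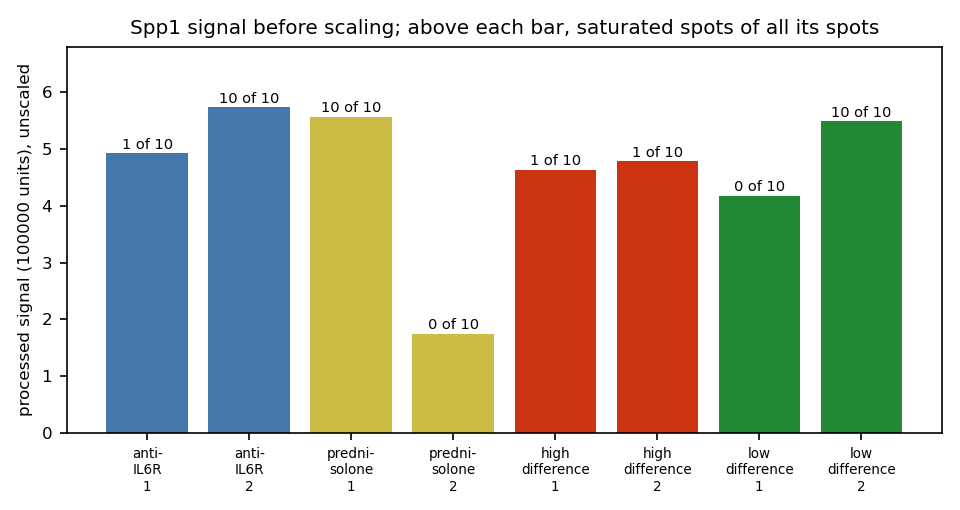
Unscaled Spp1 signal per array (bars, linear scale from 0), with the number of its 10 spots flagged as saturated. The second prednisolone array, at 174500, is the lowest, and 3 arrays have all 10 spots saturated.

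Akap12, the kinase scaffold, had the largest difference between high and low weight difference among the 6 members measured on every array. Its log2 level was -0.06 and -0.38 in the anti-IL6R grafts, 0.69 and -1.44 in the prednisolone grafts, 0.90 and 2.56 in the high-difference grafts, and -1.65 and -0.73 in the low-difference grafts. Both high-difference grafts lay above all 6 other grafts. High-difference minus low-difference was 2.92 ± 0.82, a 7.58-fold higher mean level of Akap12 (SE, n = 2 each; 95% interval 0.94 to 4.90; unadjusted p = 0.0107, limma adjusted p = 0.308). Anti-IL6R minus high-difference was -1.95 ± 0.82 (SE; limma adjusted p = 0.285) and prednisolone minus high-difference -2.11 ± 0.82 (SE; unadjusted p = 0.0398, limma adjusted p = 0.408). The dimmer Akap12 probe, with a high-minus-low difference of 3.02 ± 0.997 (SE; limma adjusted p = 0.32), put 27 of the 28 pairs of arrays in the same order. That probe was not well above background on the second prednisolone array.

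**Figure D2:**
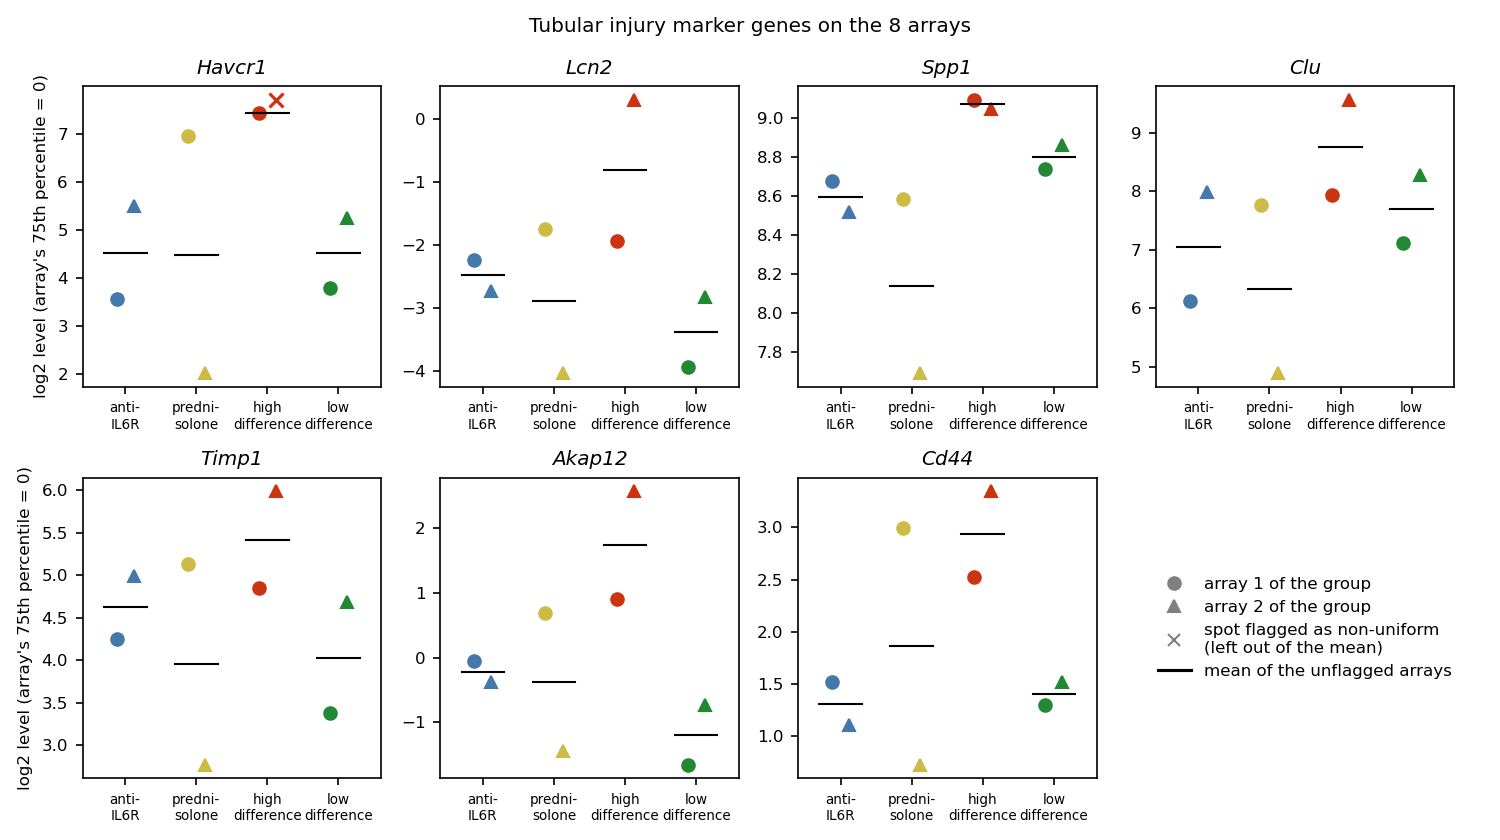
Log2 level of each member on each array (points), relative to the array's 75th percentile, with the group mean (line), for anti-IL6R, prednisolone, high-difference and low-difference grafts. Akap12 is at 0.90 and 2.56 in high-difference grafts and below both in the other 6, and the cross marks the flagged Havcr1 spot, left out of the mean.

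Lcn2, Clu, Timp1, Akap12 and Cd44, measured on all arrays without saturation, were alike in their highest and mostly in their lowest graft. The second high-difference graft was highest for 5 of these 5. The second prednisolone graft was lowest for 4 of 5, all except Akap12, for which the first low-difference graft was lowest. Between these extremes the order differed. Counted from the lowest graft, the second low-difference graft ranked 3 for Lcn2 and 7 for Clu. The 2 prednisolone grafts differed most: the first read higher for 6 of 6 members, and 5 of 6 stood over 4-fold apart, at 7.38-fold for Clu, 5.12-fold for Timp1, 4.89-fold for Lcn2, 4.82-fold for Cd44 and 4.38-fold for Akap12, against 1.86-fold for Spp1, which was saturated in the first. Of all genes tested, 5.36% stood over 4-fold apart between these 2 grafts, and 2.59% did so with the first higher. In the other groups the members over 4-fold apart numbered 0 of 6 for anti-IL6R, 1 of 6 for high difference (Lcn2) and 0 of 6 for low difference. The median gap between the 2 arrays of a group, on the log2 scale, was 0.45 for the members and 0.22 for all genes in anti-IL6R, 2.28 and 0.43 in prednisolone, 1.38 and 0.28 in high-difference, and 1.01 and 0.25 in low-difference grafts. The prednisolone mean is therefore that of 2 unlike grafts for these genes.

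For high against low weight difference, all 6 members in the fit had a positive difference, and Havcr1 did too. Their median was 1.46, beside 0.07 for all genes tested. No member passed the adjusted threshold, and neither did any of the 24461 genes (0 called, 0%) by limma, against 3588 genes (14.7%) at an unadjusted p under 0.05. At that unadjusted threshold 2 of 6 members were higher, Akap12 and Lcn2, beside 8.24% of all genes, and none was lower, beside 6.43%. Leaving out the saturated Spp1, both high-difference grafts lay above both low-difference grafts for 4 of 5 members, all except Clu, beside 33.5% of all genes, and for none below, beside 23%. Akap12 was the member with the smallest adjusted p, 0.308, and the smallest over all genes was 0.0773. The smallest p that an exact two-sided permutation test of 2 grafts against 2 can reach is 0.33.

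For anti-IL6R against untreated high difference, all 6 members had a negative difference, with a median of -1.64 beside -0.09 for all genes, though after quantile normalization Spp1 was positive and 5 of 6 were negative. By limma 0 of 6 members and 0 of all genes (0%) passed the adjusted threshold, while 4332 genes (17.7%) and none of the 6 members had an unadjusted p under 0.05 (7.09% of all genes higher and 10.6% lower). Leaving out the saturated Spp1, the groups did not overlap for Lcn2, Akap12 and Cd44, so 3 of 5 were lower, beside 36.3% of all genes, and none was higher, beside 23.4%. This median rested in part on the second high-difference graft: without it the median was -0.72 and the difference of Lcn2 was -0.54. By the members' median gap the anti-IL6R grafts were the most alike pair, though not for every member. Clu stood 3.67-fold apart there, against 3.09-fold in high-difference and 2.25-fold in low-difference grafts. For Clu and Timp1 the anti-IL6R grafts overlapped with the high-difference grafts.

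For prednisolone against untreated high difference, all 6 members again had a negative difference, with a median of -1.77 beside -0.08 for all genes. No member and no gene (0%) passed the adjusted threshold by limma, and 2892 genes (11.8%) had an unadjusted p under 0.05. At that threshold 1 of the 5 members other than the saturated Spp1 was lower, Akap12, beside 7.58% of all genes, and none was higher, beside 4.25%. Among these 5 the groups did not overlap for Clu and Akap12, so 2 of 5 were lower, beside 25% of all genes, and none was higher, beside 13.9%. This median rested on the second prednisolone graft, since it was -0.71 without that graft and -2.91 without the first. Without the second prednisolone graft, Cd44 had a difference of 0.06 and was the single member above 0. Both treatments were set against the same 2 high-difference grafts, so their differences are not independent of each other.

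Between the treatments no direction could be given. Anti-IL6R minus prednisolone had a median of 0.43 over the 6 members, with 5 above 0 and Cd44 below, and the groups overlapped for every member, Havcr1 included. Among all genes, 11.9% were higher and 14.3% lower without overlap. The differences were 0.41 ± 0.97 for Lcn2, 0.46 ± 0.30 for Spp1, 0.73 ± 1.13 for Clu, 0.67 ± 0.86 for Timp1, 0.16 ± 0.82 for Akap12, -0.55 ± 0.71 for Cd44 and 0.04 ± 1.69 for Havcr1 (SE, n = 2 each; limma adjusted p = 1 for each). Their 95% intervals were wide, at -4.22 to 4.30 for Havcr1, for example, so that similar levels are not shown either. The median was 1.39 without the first prednisolone graft and -0.73 without the second. By limma 0 genes (0%) passed the adjusted threshold and 831 (3.4%) had an unadjusted p under 0.05, 2.58% higher and 0.822% lower, with no member among them.

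**Figure D3:**
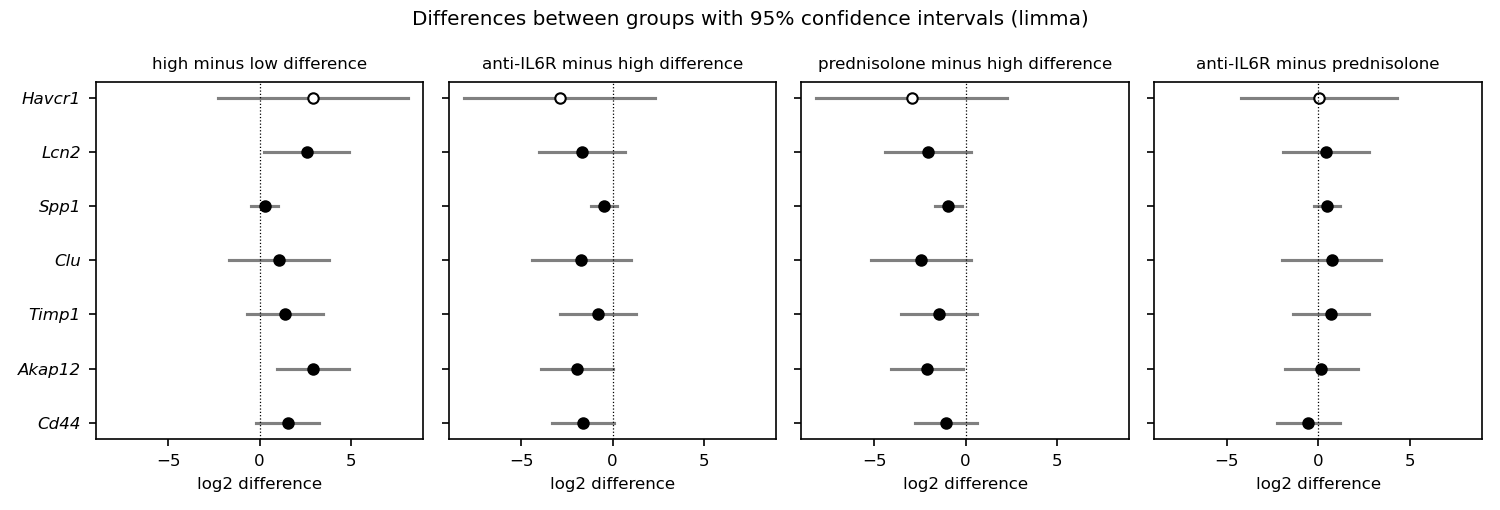
Difference in log2 level for each member in the 4 comparisons (points), with 95% intervals from limma (bars). The open points of Havcr1 come from the fit with the flagged array missing. High minus low differences are above 0 and treated minus high differences below 0 for all 7 members (Spp1 in anti-IL6R minus high is above 0 after quantile normalization). The intervals exclude 0 only for Lcn2 and Akap12 in high minus low and for Akap12 and the saturated Spp1 in prednisolone minus high. All other intervals span 0, and the intervals are not adjusted for the number of genes.

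A wider list of tubular injury and repair genes, none of them a member, held 36 tested genes of 38. Of these, 27 were above 0 and 9 below 0 in high minus low difference, with a median of 0.49, and 0 passed the adjusted threshold. Krt20, a keratin of simple epithelia, had log2 levels of -0.13 and -0.76 in high-difference grafts and was not well above background in low-difference grafts, so that it was at least 43.8-fold higher (limma adjusted p = 0.301). Cdkn1a, which encodes the cell-cycle inhibitor p21, read 1.22 and 1.43 in high-difference against -0.48 and 0.33 in low-difference grafts, so that the means differed by 1.40 ± 0.38 (SE; limma adjusted p = 0.308). Others ran the opposite way: Vcam1, an adhesion molecule for leukocytes, read 2.72 and 1.56 in high-difference against 3.66 and 4.36 in low-difference grafts (difference -1.87 ± 0.51, SE; limma adjusted p = 0.308). Cst3, a secreted protease inhibitor, differed by -0.62 ± 0.21 (SE; limma adjusted p = 0.312). Vcam1 is also made by activated endothelium. In anti-IL6R minus high difference, 7 of the 36 were above 0 and 29 below (median -0.57), in prednisolone minus high difference 13 and 23 (median -0.24), and in anti-IL6R minus prednisolone 7 and 29 (median -0.27), with 0 passing in each.

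The receptors, ligands and binding partners of the members were split evenly. Of 21 tested genes of 27, 10 were above 0 and 11 below in high minus low difference (median -0.01), 11 and 10 in anti-IL6R minus high (median 0.16), 10 and 11 in prednisolone minus high (median -0.04) and 10 and 11 in anti-IL6R minus prednisolone (median -0.03), with 0 passing. Timp1's relatives Timp2 and Timp3, which also inhibit metalloproteinases, had high-minus-low differences of -0.81 ± 0.28 (limma adjusted p = 0.316) and -0.58 ± 0.23 (limma adjusted p = 0.331), opposite in sign to Timp1. Mmp3, a matrix metalloproteinase, read -3.47 and -3.79 in high-difference grafts and was not well above background in low-difference grafts. It was thus at least 5.39-fold higher with a high difference (limma adjusted p = 0.347). Mmp3 was tested only because its signal in the high-difference grafts let it through the filter, which favoured a difference in this direction. Msn, or moesin, which links Cd44 to the actin cortex, differed by 0.68 ± 0.32 (SE; limma adjusted p = 0.359).

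In the IL-6/STAT3 list, 15 of 21 tested genes were above 0 and 6 below in high minus low difference (median 0.37), and 0 passed. Cntf, a cytokine that signals through the same receptor subunit as IL-6, read 1.97 and 2.32 in high-difference against 0.39 and 0.56 in low-difference grafts, so that the means differed by 1.67 ± 0.21 (SE; limma adjusted p = 0.209). Cebpb, a C/EBP factor, differed by 1.20 ± 0.31 (limma adjusted p = 0.308). Il6st, the shared receptor subunit, differed by -0.60 ± 0.21 (limma adjusted p = 0.322). Of these 21 genes, 5 were above 0 in anti-IL6R minus high (median -0.35), 5 in prednisolone minus high (median -0.81) and 16 in anti-IL6R minus prednisolone (median 0.23), with 0 passing.

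Markers of other cells differed between the grafts too, in some lists in the members' order and in others against it. The summed level of a list is the sum of its tested genes' linear levels, where 1 is the array's 75th percentile. For macrophages and monocytes (9 of 10 genes tested) it was 80.6 and 55.1 in anti-IL6R, 107 and 26.6 in prednisolone, 19.9 and 14.0 in high-difference and 41.4 and 62.1 in low-difference grafts. It was lowest in the high-difference grafts, where most members were highest, and within the prednisolone group it was higher in the graft with the higher members. For T cells (7 of 8 tested) the sums were 1.38 and 1.19 in anti-IL6R, 1.22 and 0.443 in prednisolone, 0.344 and 0.390 in high-difference and 1.26 and 1.17 in low-difference grafts. Cd2, Cd3e, Cd4 and Cd8a were not well above background on either high-difference array. This was not particular to that group: Cd3e and Cd4 were also dim on both low-difference arrays, and Cd3e on both prednisolone arrays. The T cell sums of these groups thus include levels not well above background. On the second prednisolone array 1 of the 7 genes was well above background. Cd3e and Cd4 were tested only because both anti-IL6R arrays were bright enough, which favoured a higher level in that group.

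Neutrophils, a known source of Lcn2, had 3 of 9 markers tested, S100a8, S100a9 and Csf3r, and the other 6, among them Mpo and Mmp8, were not. Their summed level was 0.638 and 0.342 in anti-IL6R, 2.02 and 0.152 in prednisolone, 0.430 and 0.219 in high-difference and 0.146 and 0.196 in low-difference grafts. Csf3r was well above background on 3 arrays and dim on both high-difference and both low-difference arrays. It was tested only because both anti-IL6R arrays were bright enough, which favoured a higher level in that group. The lowest sums, in the second prednisolone and the first low-difference graft, were in the grafts with the lowest Lcn2, and the highest sum was in the first prednisolone graft, not in the second high-difference graft, where Lcn2 was highest. Of the tubule segments, the proximal list summed to 588 and 620 in anti-IL6R, 502 and 497 in prednisolone, 684 and 379 in high-difference and 632 and 575 in low-difference grafts. The bright genes carry such a sum. Gene by gene, 8 of 10 proximal genes were below 0 in high minus low difference (median -0.94, with 0 passing the adjusted threshold). Without overlap 3 of the 10 were lower, beside 23% of all genes, and 0 higher, beside 33.5%, so the share lower was near that of all genes. Those 3 were the phosphate transporter Slc34a1 (-2.73 ± 0.80), the inositol oxygenase Miox (-2.61 ± 0.89) and the organic anion transporter Slc22a6 (-2.09 ± 0.72, SE; limma adjusted p = 0.308, 0.316 and 0.316). Cubn (0.06) and Slc5a2 (0.37) were above 0. The loop of Henle and distal list summed to 729 and 427, 282 and 855, 433 and 315, and 1070 and 633 in the same group order, and the collecting duct list to 67.5 and 72.2, 37.9 and 118, 47.4 and 34.8, and 102 and 66.2. All 8 tested genes of each of these lists were below 0 in high minus low difference, with 0 passing the adjusted threshold. Without overlap 7 of 8 loop and distal genes and 8 of 8 collecting duct genes were lower, beside 23% of all genes. In both of the last lists the first prednisolone graft, with the higher members, was below the second. The part of these cell types in the members' differences was not tested.

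**Figure D4:**
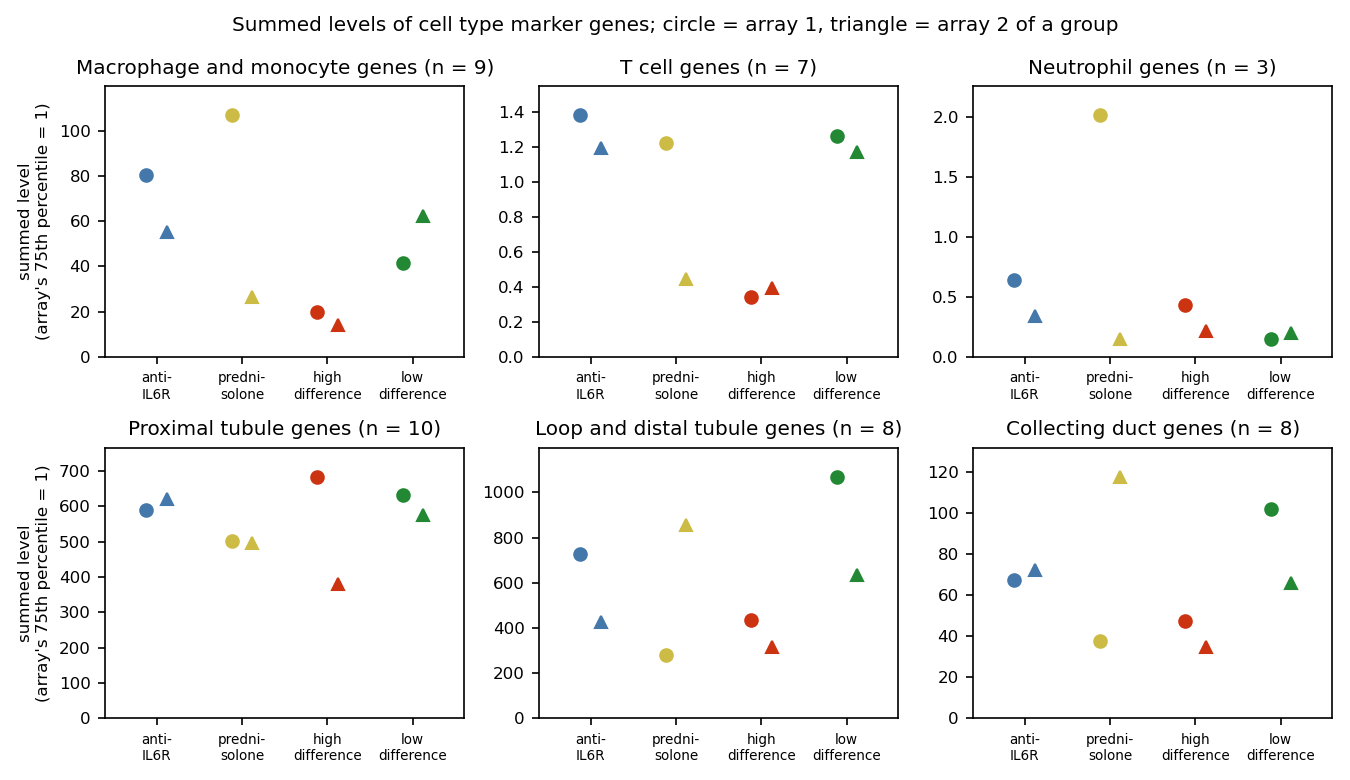
Summed level of the marker genes of 6 cell types on each array (circle for the first and triangle for the second array of a group; linear axis from 0), where 1 is the array's 75th percentile. The macrophage sums of the high-difference grafts, 19.9 and 14.0, are the lowest of the 8, and the 2 prednisolone grafts are far apart at 107 and 26.6.

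The genes whose levels over the 8 arrays were most like the mean of the 6 members, each scaled to its own mean and SD, were Prcp (Pearson r = 0.991), Fgb (0.989), Adamtsl4 (0.986), Vmp1 (0.98), Slc34a2 (0.978) and Arhgdig (0.976). They were picked for this likeness from all genes with a symbol, and the arrays share their groups, so the values are a description. Fgb, the fibrinogen beta chain and an acute-phase gene, read 4.21 and 4.41 in anti-IL6R, 5.57 and 1.55 in prednisolone, 5.73 and 8.30 in high-difference and 3.62 and 5.37 in low-difference grafts. The highest Fgb level was in the second high-difference graft and the lowest in the second prednisolone graft. Its choice by likeness to the members' mean makes such an order likely. Slc34a2, a sodium-phosphate cotransporter, read -0.64 and -0.46, 0.67 and -1.82, 1.07 and 1.93, and -0.60 and 0.10 in the same group order.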

How the data were processed

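RNA of 8 grafts was labelled with Cy3 (1 µg each, per the labels' protocols) and read on 1-colour Agilent arrays. The deposited spot intensity is the processed signal from Agilent's Feature Extraction software (version 9.5.1.1), background-subtracted within the array and unscaled between arrays, per the file headers. Control and outlier-flagged spots were dropped, and levels are log2 signals minus the 75th percentile of their array. The arrays hold 41012 probes, of which 765 lacked an unflagged spot on at least 1 array and 11562 were not well above background on both arrays of any group. The other 28685 stood for 24461 genes, each by its brightest probe, of which 11772 had a symbol. Names came from the files, updated through RefSeq (GRCr8): 10735 probes matched by accession, 5577 by symbol, 3730 by synonym, and 20970 kept the file's name. Unmapped per-sample columns numbered 0. Probe positions name no build, so none are printed.

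Groups came from the labels, and the study's design text calls the 2 grafts of a group biological replicates. Each gene was tested in a single limma 3.58.1 fit (R 4.3.3) of the 8 arrays, eBayes without trend, with 4 residual and 2.37 prior degrees of freedom, Benjamini-Hochberg over all genes and a threshold of 0.05. The spread of a gene is pooled over all groups, so the unlike prednisolone grafts also enter the SE of high minus low difference. Havcr1, flagged on 1 array, came from a fit of 24892 genes with that array missing. A gene dim on both arrays of a group has a bound: the brighter group's mean against the higher of the dim level and the lowest level well above background. Precision is limited by 2 arrays per group. The authors' deposited value table of intensities was an alternative, as were other scalings, background corrections, filters, flag rules, probe rules, a replicate block and leaving out each array. Methods were tested on simulated data. Named genes are the 7 members, the 4 genes of each pathway list with the smallest p in high minus low difference, and the 6 genes most like the members; a gene that this rule took is not reported here. For the marker lists summed levels are given instead, and cell type genes named beside them were chosen after their values were seen. The members and lists were chosen with earlier results of these data known. The 11 promoter motifs were chosen after that.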

Additional observations from a re-analysis of the deposited data

How the results depend on the processing

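No member passed the adjusted threshold of 0.05 under any alternative run, except Spp1 in prednisolone minus high difference without the first prednisolone graft, on which all its spots were saturated (-1.38, limma adjusted p = 0.0357; adjusted p from 0.0357 to 0.827 over its alternatives). Where a graft is left out, the lone graft is assumed to vary like the others. High minus low differences of all 7 members kept their sign in every alternative that could be run. For Havcr1 there was no run without its only unflagged high-difference graft, so 20 settings were run, against 21 for the other members. Counts of genes called, 0 in each comparison, were 3 after quantile normalization and 1 after median scaling in high minus low, 7 and 1 in anti-IL6R minus high, 4 after quantile normalization in prednisolone minus high, and 2 after quantile normalization and 1 with flagged spots kept in anti-IL6R minus prednisolone. Leaving out single grafts gave 0 to 108, 0 to 157, 0 to 556 and 0 to 402 calls in these comparisons. The grafts whose removal gave calls were the first high-difference graft (108, 137 and 64 in the first 3 comparisons), the first prednisolone graft (24, 157, 556 and 402) and the second prednisolone graft (14, 126, 32 and 63).

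The members' median ranged over single grafts left out from 0.97 to 1.95 in high minus low, -2.27 to -0.72 in anti-IL6R minus high, -2.91 to -0.71 in prednisolone minus high and -0.73 to 1.39 in anti-IL6R minus prednisolone. Anti-IL6R minus prednisolone turned in sign when a graft was left out for Akap12 (-0.91 to 1.23), Cd44 (-1.68 to 0.585), Clu (-0.72 to 2.17), Havcr1 (-2.43 to 2.51), Lcn2 (-0.74 to 1.55) and Timp1 (-0.51 to 1.85), and for Havcr1 also after median scaling (-0.0314). Without the first anti-IL6R graft Akap12 was -0.0012, and without the second Clu was -0.21 and Havcr1 -0.92. Cd44 in prednisolone minus high difference ranged from -2.21 to 0.0595 (0.0595 without the second prednisolone graft), and Spp1 in anti-IL6R minus high was 0.0811 after quantile normalization. The cause of these changes was not tested. The replicate numbers do not pair the grafts: deviations of same-numbered grafts correlated between -0.351 and 0.366. With the replicate number as a block, 0 genes were called in each comparison and the medians were 1.46, -1.64, -1.77 and 0.43. In an alternative chosen after seeing the data, without the saturated Spp1, the medians in the same order were 1.53, -1.66, -2.07 and 0.41. Signal limits Spp1, at saturation, and Havcr1, with a flagged spot.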

Other observations

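The remaining marker lists, of fibroblasts, endothelium and smooth muscle, had a lower summed linear level in both high-difference grafts than in both anti-IL6R grafts. The fibroblast list (7 genes) summed to 225 and 210 in anti-IL6R, 106 and 116 in prednisolone, 131 and 58.3 in high-difference and 111 and 190 in low-difference grafts. Here 7 of 7 genes lay higher in anti-IL6R than in prednisolone grafts without overlap, beside 11.9% of all genes. By limma 0 passed the adjusted threshold, while 5 had an unadjusted p under 0.05, beside 2.58% of all genes higher at that threshold. Lum, which is among these 5, was dim on both prednisolone arrays. It entered the test only because the anti-IL6R grafts were bright enough for it, which favoured a difference in this direction. The endothelial list (8 genes) summed to 80.1 and 68.7 in anti-IL6R, 79.1 and 67.0 in prednisolone, 58.8 and 44.0 in high-difference and 68.1 and 76.7 in low-difference grafts. The smooth muscle list (4 genes of 5) summed to 10.8 and 18.0, 15.7 and 8.16, 6.72 and 3.48, and 6.95 and 20.4 in the same group order.

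Podocyte markers (6 genes) summed to 60.4 and 39.2 in anti-IL6R, 50.9 and 56.4 in prednisolone, 40.9 and 33.1 in high-difference and 54.6 and 48.9 in low-difference grafts. The podocyte sums of anti-IL6R and high-difference grafts overlapped.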
